A study of Mus musculus with 2 samples.

Results

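The semaphorins, the plexins and the neuropilins form a ligand and receptor family whose members were followed here across both samples of the study. Members were genes whose symbol starts with Sema and a number or with Plxn, together with Nrp1 and Nrp2, and a probe was assigned to a member through its RefSeq accession. Of 20144 genes that received a name in this way, 31 were members, namely 20 semaphorins, 9 plexins and 2 neuropilins, read by 39 probes. The antisense RNA gene Plxna4os1 also fits the symbol rule, but no probe carried its accession.

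The samples were described as P3 primary keratinocytes, cells of the epidermal epithelium, and the labels do not spell out P3. The control came from mice labelled Rac3-KO, for a knockout of the small GTPase Rac3. The other sample came from mice labelled Rac1/Rac3-DKO, for a knockout of the related GTPase Rac1 as well, so by the labels both groups share the Rac3 deletion. Strain, the Cre line or promoter behind the deletion and the number of animals are not given in the sources used here. With 1 array for each genotype, called the control array and the DKO array below, the spread between samples is unknown, and the genotypes could not be compared by a test.

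Semaphorins are secreted or cell-surface guidance proteins that share a sema domain. They bind plexins, whose cytoplasmic part inactivates Rap and R-Ras GTPases and, in several plexins, binds active Rac. Neuropilins are co-receptors for most class 3 semaphorins and for vascular endothelial growth factors. In skin, semaphorin signals are known for limiting nerve growth into the epidermis and for contacts between keratinocytes and the epidermal T cells.

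A level is the log2 processed signal minus the 75th percentile of its array, and a difference is the level on the DKO array minus that on the control array. The 75th percentile was a signal of 705 for the control and 354 for the DKO array. Of 55678 probes, 56.9% and 52.9% respectively were well above background by the scanner software's flag, from a signal of 23.4 and 20.1 upward, and 0 spots were saturated. The label check was not informative. Rac1 had a difference of 0.28 and Rac3 of 0.24, and the position of their probes relative to the deleted exons was not examined. Levels of different probes are not on a common scale, so levels were compared between arrays and not between genes. The summed signals of marker lists below are an exception, since they add probes of different genes and lean on the brightest.

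Both samples held RNA of several tissues, and the markers of these tissues differed between the arrays. All 8 basal keratinocyte markers were measured and 6 were lower by 2-fold or more on the DKO array, with a median difference of -1.67 and a summed signal of 448058 on the control array against 81701. Summed signals were not scaled between the arrays, whose 75th percentiles were 705 (control) and 354 (DKO), whereas the median differences were. A summed signal can therefore fall where the median difference lies above 0. Suprabasal keratinocyte markers had a median of -1.87 over 6 measured of 8 (summed signals 196329 and 7563), hair follicle markers -1.62 over 8 (88096 and 13970) and melanocyte markers -0.99 over 6 (62552 and 14440). Skeletal muscle markers had a median of 2.62 over 8 (255054 and 682494), macrophage and leukocyte markers 1.17 over 8 measured of 9 (32676 and 39734), fibroblast markers 0.72 over 8 (1023129 and 894898), endothelial markers 0.60 over 9 (29383 and 23814), adipocyte markers 0.57 over 6 (136453 and 102994) and pericyte and smooth muscle markers 0.43 over 7 (24762 and 24315). Schwann cell and nerve markers had a median of -0.39 over 5 measured of 7 (7743 and 3274), where Cdh19 was not well above background on either array and Erbb3 on the control array alone. Among the keratinocyte markers Ivl passed the flag on the control array alone and Flg had no named probe. In such bulk RNA fewer cells of a type and less RNA per cell cannot be told apart, and the part of these tissues in the differences below was not tested.

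Nearly the whole family was detected on both arrays. Of its 30 measured genes 7 lay at least 2-fold apart, beside 2028 of 14144 (14.3%) over all measured genes. A gene was measured when the flag was set on both arrays for its representative probe. This held for 14144 of all 20144 named genes and for 30 of the 31 members. The exception was Sema4f, a class 4 semaphorin, with signals of 9.42 and 12.7 that were not well above background on either array. Plxna3, Plxnb1, Sema4g, Sema3f and Plxnc1 were lower on the DKO array by 2-fold or more, and Plxna1 and Sema6b higher. The 5 lower genes made up 16.7% of the measured members, where 6.62% of all 14144 measured genes were at least 2-fold lower. The 2 higher genes made up 6.67%, where 7.71% of all measured genes were at least 2-fold higher. The remaining 23 measured members differed by less than 2-fold. Centring each array on its median in place of its 75th percentile gave 6 lower and 0 higher members, as Plxna1 and Sema6b came to 0.99 and 0.98 and Sema4d to -1.03.

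**Figure D1:**
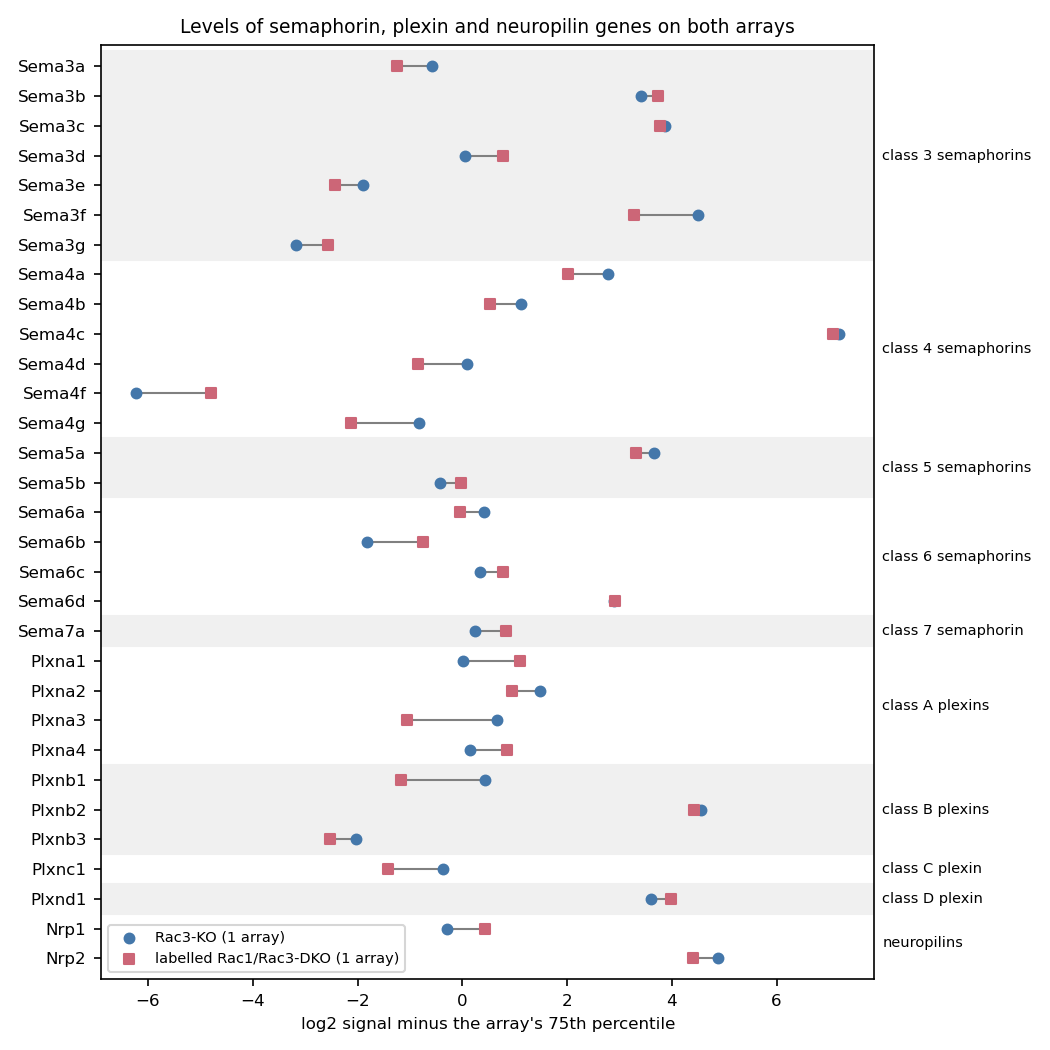
Log2 level of each gene on the control array (circles) and the DKO array (squares), relative to each array's 75th percentile, with genes grouped by class. Rows are to be read one at a time, since probes of different genes are not on a common scale; the gap is widest among measured genes for Plxna3 (0.67 and -1.05), and Sema4f at the far left was not well above background on either array.

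The median difference over the 30 measured members was -0.25, against -0.01 over all measured genes, with 18 members below 0 and 12 above. The median was -0.12 over 19 semaphorins and -0.49 over 9 plexins. The error known for these values is technical only. The scanner software's signal error of a member's difference lay between 0.20 and 0.26 (log2), and different probes of a gene had a root mean square SD of 0.38 over 3578 genes. In 22 of the 30 measured members the difference exceeded the 95% range of the signal error, which holds no variation between cultures or animals. The share over all measured genes is not given here, so this count cannot be read as a trait of the family.

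Promoter sequences of the genes at least 2-fold apart are shown because these genes carry the differences described. RefSeq entries (GRCm38.p6) covered 26 of the 31 members, with 37 transcript starts. Entries were found for Plxna3, Plxnb1, Plxnc1, Sema4g and Sema6b, but not for the lower gene Sema3f or the higher gene Plxna1. For Sema6b the upstream of its listed starts is shown. Each sequence runs 5′ to 3′ on the strand of the gene from 250 bases before the start to 50 after it, and capitals mark the GC box, GGGCGG or CCGCCC on the other strand.
Plxna3 promoter, chrX:74328816-74329115, plus strand: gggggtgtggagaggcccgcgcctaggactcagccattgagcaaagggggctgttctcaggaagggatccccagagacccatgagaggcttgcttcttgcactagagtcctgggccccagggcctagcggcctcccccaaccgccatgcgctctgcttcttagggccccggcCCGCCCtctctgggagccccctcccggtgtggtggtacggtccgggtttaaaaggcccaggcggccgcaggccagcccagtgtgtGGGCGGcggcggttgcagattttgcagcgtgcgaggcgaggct
Plxnb1 promoter, chr9:109095186-109095485, plus strand: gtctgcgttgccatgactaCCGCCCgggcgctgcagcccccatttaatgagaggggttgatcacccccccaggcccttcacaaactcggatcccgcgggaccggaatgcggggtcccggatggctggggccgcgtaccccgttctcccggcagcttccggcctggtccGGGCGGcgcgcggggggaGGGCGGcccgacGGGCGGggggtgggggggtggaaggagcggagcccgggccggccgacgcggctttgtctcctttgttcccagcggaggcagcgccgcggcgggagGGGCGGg
Plxnc1 promoter, chr10:94944796-94945095, minus strand: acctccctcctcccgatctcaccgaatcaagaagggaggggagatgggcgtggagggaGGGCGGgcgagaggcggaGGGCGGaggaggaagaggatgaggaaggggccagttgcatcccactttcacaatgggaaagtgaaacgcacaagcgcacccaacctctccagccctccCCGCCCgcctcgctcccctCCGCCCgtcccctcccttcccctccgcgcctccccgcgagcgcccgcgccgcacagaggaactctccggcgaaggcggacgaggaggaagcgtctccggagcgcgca
Sema4g promoter, chr19:44989094-44989393, plus strand: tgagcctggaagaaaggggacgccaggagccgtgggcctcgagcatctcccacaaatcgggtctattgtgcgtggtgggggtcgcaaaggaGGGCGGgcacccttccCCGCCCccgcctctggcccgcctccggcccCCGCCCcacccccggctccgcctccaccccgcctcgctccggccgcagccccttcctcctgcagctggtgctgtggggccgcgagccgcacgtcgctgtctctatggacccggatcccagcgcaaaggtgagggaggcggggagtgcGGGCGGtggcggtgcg
Sema6b promoter, chr17:56140294-56140593, minus strand: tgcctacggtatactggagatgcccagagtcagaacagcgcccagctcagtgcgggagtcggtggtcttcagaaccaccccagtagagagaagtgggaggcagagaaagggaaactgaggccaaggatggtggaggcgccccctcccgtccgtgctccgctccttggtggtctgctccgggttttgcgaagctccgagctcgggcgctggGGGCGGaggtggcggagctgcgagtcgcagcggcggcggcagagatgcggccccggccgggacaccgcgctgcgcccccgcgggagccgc

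The GC box occurred 2 times in the Plxna3 promoter, 5 times in that of Plxnb1, 4 times each in those of Plxnc1 and Sema4g, and 1 time in that of Sema6b. These promoters held 18, 36, 30, 30 and 29 CpG dinucleotides in the same order, where the median was 15 over the 37 member promoters and 7 over 32851 promoters of all genes. Across the family 27 of 37 promoters (73.0%) held a GC box, compared with 35.7% of all promoters. These 27 belonged to 21 of the 26 genes, and promoters of the same gene can overlap and are not independent. The TATA box (TATAAA or TTTATA) was in 0 of 37 and in 13.6% of all, and the CCAAT box (CCAAT or ATTGG) in 18.9% and 37.4%. The E-box CACGTG was in 8.11% of member promoters and 7.15% of all, the AP-1 motif TGANTCA in 8.11% and 7.81%, and the TEAD motif GGAATG or CATTCC in 8.11% and 14.7%. GC boxes were thus present both in the lower genes shown and in Sema6b, the only higher gene shown. The letters say nothing of which factors were bound.

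Class 3 semaphorins, the secreted ligands that act mostly through neuropilin and class A plexin complexes, went in both directions. Levels are given for the control array first. Sema3f, the ligand that binds Nrp2, had levels of 4.49 and 3.27, a difference of -1.22 or 2.33-fold lower. It was the only class 3 gene at least 2-fold apart. Sema3a, which binds Nrp1 and repels sensory axons, had levels of -0.58 and -1.24, a difference of -0.67, and its dimmer probe gave -0.47. Sema3e, which binds Plxnd1 directly without needing a neuropilin, had levels of -1.89 and -2.42, a difference of -0.54. Both ligands thus lay below 0 but under the 2-fold threshold. Sema3d had levels of 0.04 and 0.78, a difference of 0.74. Sema3g, known from endothelium, had levels of -3.18 and -2.56, a difference of 0.62 whose signal error was 0.26. Sema3b had levels of 3.41 and 3.74, a difference of 0.33. These ligands were the class 3 genes above 0, all under 2-fold. Sema3c, with levels of 3.86 and 3.77, differed by -0.10 at its brighter probe and by 0.15 at the dimmer probe, so its direction was not settled. The class median was -0.10 over 7 measured genes and turned to 0.03 when the probes of a gene were averaged.

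Neighbouring class 3 genes had differences of either the same or the opposite sign. Sema3b and Sema3f lie on chromosome 9 with 3 protein-coding genes between them in the RefSeq table, and differed by 0.33 and -1.22. Sema3d and Sema3a are adjacent on chromosome 5, with 0 protein-coding genes between them, and differed by 0.74 and -0.67. Sema3e follows Sema3a after 3 further protein-coding genes and differed by -0.54, and Sema3c lies on the same chromosome beyond Sema3e. Signs were opposite for Sema3b and Sema3f and for Sema3d and Sema3a, and the same for Sema3a and Sema3e.

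Of the class 4 semaphorins, transmembrane ligands of class B plexins among others, all 5 measured genes had a difference below 0. Sema4g had levels of -0.82 and -2.13, a difference of -1.31 or 2.47-fold lower, which came to -0.89 and so under 2-fold with normexp background correction. Sema4d, the ligand of Plxnb1 and, on epidermal T cells, of Plxnb2 on keratinocytes, had levels of 0.10 and -0.84, a difference of -0.93 just under the 2-fold threshold. Sema4a, which also acts on T cells, had levels of 2.78 and 2.02, a difference of -0.76. These genes stood lowest in the class. Sema4b had levels of 1.13 and 0.54, a difference of -0.59. Sema4c, a ligand of Plxnb2, had signals of 103437 and 47743 and levels of 7.20 and 7.07, a difference of -0.12 that was smaller than its signal error of 0.20. The 5 measured genes had a median of -0.76, and all stayed below 0 in the 9 settings in which differences were recomputed. Several of these settings could not change a sign, and spike-in scaling was not among them. Over all measured genes 50.6% had a difference below 0. The medians of the basal and suprabasal keratinocyte markers were -1.67 and -1.87, and that of the macrophage and leukocyte markers was 1.17. The part of these cell types in the class 4 differences was not tested.

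The remaining semaphorins are bound to the membrane. Sema5a and Sema5b, which carry thrombospondin repeats, had levels of 3.67 and 3.31 and of -0.43 and -0.03, differences of -0.36 and 0.40. Among the class 6 genes, ligands of class A plexins, Sema6b had levels of -1.82 and -0.74, a difference of 1.07 or 2.10-fold higher. It was the only semaphorin at least 2-fold higher. Sema6c had levels of 0.35 and 0.78, a difference of 0.43. Sema6d had levels of 2.89 and 2.92, a difference of 0.03 that turned below 0 at its dimmer probe (-0.13), with median scaling and with normexp. Sema6a had levels of 0.42 and -0.05, a difference of -0.46. Sema7a, the GPI-anchored ligand of Plxnc1 and of integrin beta 1, had levels of 0.24 and 0.84, a difference of 0.60. Class 6 thus held signs of both kinds, with a median of 0.23 over 4 genes.

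**Figure D2:**
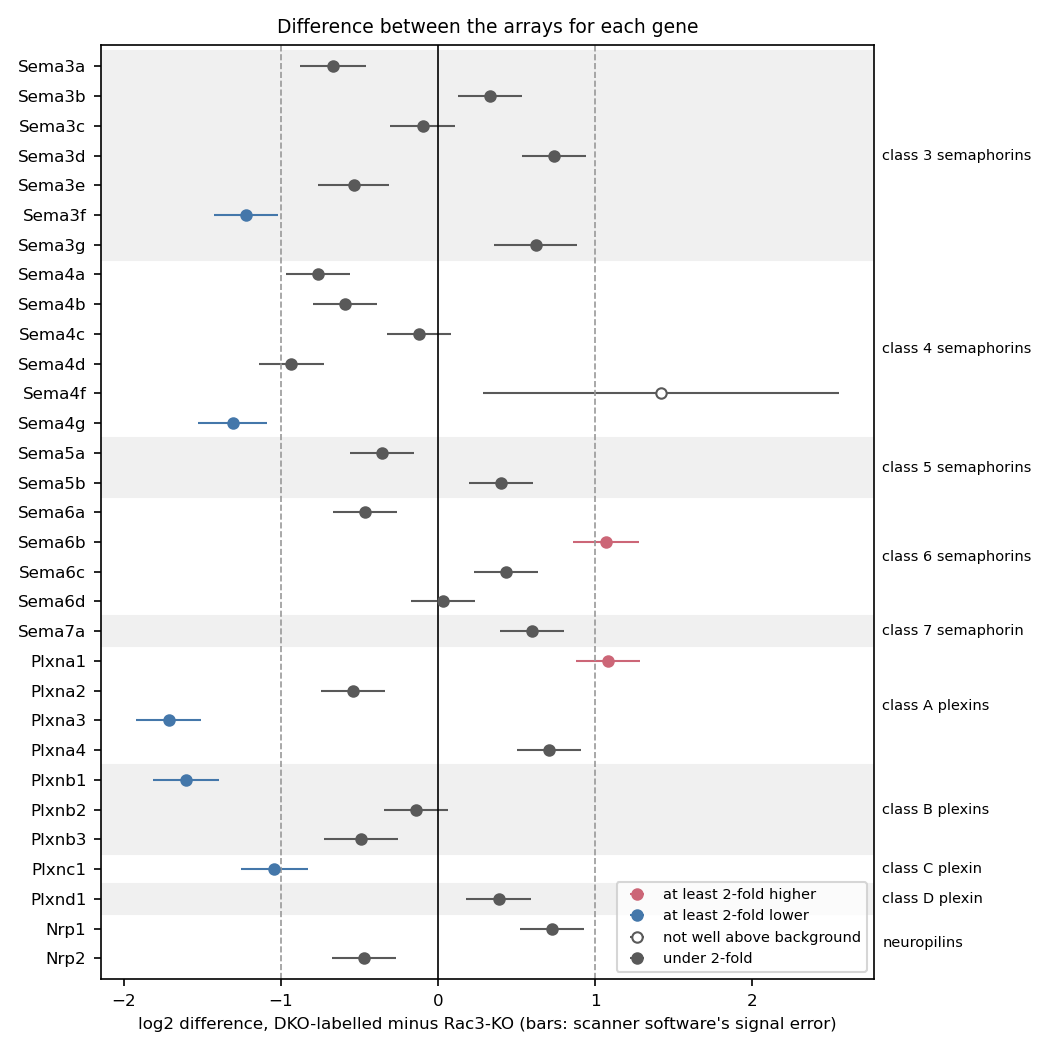
Log2 difference (DKO-labelled minus Rac3-KO) of each gene, with bars for the scanner software's signal error and dashed lines at 2-fold. All 5 measured class 4 semaphorins lie left of 0, Plxna3 (-1.71) and Plxna1 (1.08) lie at opposite sides within a class, and the open circle (Sema4f) was not well above background.

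Plexins of class A differed from each other by more than any other class. Plxna3, known as a receptor of Sema3f signals with Nrp2, had signals of 1120 and 172 and levels of 0.67 and -1.05. Its difference of -1.71, or 3.28-fold lower, was the lowest of the family, and 1.82% of all measured genes had a lower difference. Plxna1, the partner of Sema6d and of Trem2 complexes in other tissues, had signals of 713 and 760 and levels of 0.02 and 1.10. Its difference of 1.08, or 2.12-fold higher, was close to the 1.07 of Sema6b and came to 0.95 with normexp, under 2-fold. The span between both genes within the class was thus wider than the error between probes. Plxna4, a receptor of Sema3a and class 6 ligands, had levels of 0.15 and 0.86, a difference of 0.71, while its other probe was not well above background on either array. Plxna2 had levels of 1.49 and 0.95, a difference of -0.54. The class median of 0.08 turned to -0.01 with median scaling.

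Plexins of class B had differences below 0. Plxnb1, the receptor of Sema4d, had signals of 957 and 158 and levels of 0.44 and -1.16. Its difference was -1.61, or 3.04-fold lower, and -1.19 with normexp. Plxnb2, known from epithelia, had levels of 4.56 and 4.42, a difference of -0.14 that was smaller than its signal error of 0.20. Plxnb3, a receptor of Sema5a, had levels of -2.03 and -2.52, a difference of -0.49 that turned to 0.08 with normexp. Plxnb1 was thus the only class B gene at least 2-fold apart.

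The single plexins of classes C and D differed in sign. Plxnc1, the receptor of Sema7a, had levels of -0.37 and -1.41 at its brighter probe, a difference of -1.04 or 2.06-fold lower. Its dimmer probe, with signals of 47.4 and 24.4 near the lowest signals well above background, differed by 0.03. The mean over both probes was -0.50, so the call rests on the brighter probe. Plxnd1, known from endothelium, had levels of 3.60 and 3.99, a difference of 0.39, and 0.24 at its other probe. Endothelial markers had a median of 0.60 beside it.

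Neuropilins also had opposite signs. Nrp1, the co-receptor of Sema3a and of Vegfa, had signals of 576 and 478 and levels of -0.29 and 0.43, a difference of 0.72. Nrp2, the co-receptor of Sema3f, had signals of 20804 and 7540 and levels of 4.88 and 4.41, a difference of -0.47, and its other probe gave -0.51. Both were under 2-fold, and both kept their sign in the 9 settings, several of which could not change it. Endothelial markers, whose cells express neuropilins, had a median of 0.60, and basal keratinocyte markers of -1.67. Other marker lists had medians of either sign, and the part of any tissue in these differences was not tested.

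Known ligand and receptor partners can be set side by side. In the Sema3f system the ligand, Nrp2 and Plxna3 differed by -1.22, -0.47 and -1.71. Sema4d and its receptor Plxnb1 differed by -0.93 and -1.61. In these systems every partner named lay below 0. So did Sema4c and Plxnb2 (-0.12 and -0.14) and Sema5a and Plxnb3 (-0.36 and -0.49). Sema6d and Plxna1 lay above 0 (0.03 and 1.08), though the signs of Sema6d and Plxnb3 turned with normexp. Sema3a differed by -0.67 and its receptors Nrp1 and Plxna4 by 0.72 and 0.71. Sema3e and Plxnd1 differed by -0.54 and 0.39, so in both of these systems the ligand and the receptors named had opposite signs. The systems were picked and do not hold every known partner. With Plxna2 (-0.54) or Plxna3 (-1.71) set beside Sema3a, or Plxna1 (1.08) beside Sema3f, the signs would read otherwise. Sema7a differed by 0.60 and its receptors Plxnc1 and Itgb1 by -1.04 and 0.70, where the dimmer Plxnc1 probe gave 0.03. These pairs share the same 2 arrays, and no relation across samples could be tested.

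Plxna3 and Plxnb3 are X-linked, and the values over all X-linked genes stand beside them. The 487 measured X-linked genes had a median difference of -0.03 and 7.19% were at least 2-fold lower, compared with -0.01 and 6.60% of 13657 measured genes on the other chromosomes. Between Plxnb3 and Plxna3 the RefSeq table lists 23 protein-coding genes.

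Other genes of the pathway were counted in the same way, to be read beside the 7.71% of all measured genes that were at least 2-fold higher and the 6.62% that were lower. Among 16 adhesion and signal partners of plexins and neuropilins, 15 were measured, with a median of 0.41. Kdr, the VEGF receptor that pairs with Nrp1, was 2.25-fold higher in the DKO sample and Trem2, a myeloid receptor found with Plxna1 complexes, 3.07-fold higher, while the adhesion molecule Chl1, a partner of Nrp1, was 2.46-fold lower. Kdr is also an endothelial marker, and leukocyte markers had a median of 1.17 beside Trem2. Flt4, which passed the flag on the control array alone, had signals of 32.7 and 16.7. Of 9 other semaphorin receptors 8 were measured and 0 were at least 2-fold apart, with a median of 0.55. They included the Sema7a receptor Itgb1 at 0.70 and the Sema4d receptor of B cells, Cd72, at -0.995 (log2), and the Sema4a receptor Timd2 was not well above background on either array.

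All 45 cytoplasmic effectors were measured, a list that also held Rac1, Rac2, Rac3 and the plexin-domain genes Plxdc1 and Plxdc2. Their median was 0.03, 3 were at least 2-fold higher and 1 was lower, where 7.71% and 6.62% of all measured genes were. The R-Ras relative Rras2 was 2.74-fold higher, the collapsin response mediator Dpysl3 2.21-fold and the kinase Fyn, known from Sema3a signalling, 2.05-fold, while Rhod, a small GTPase that binds plexins, was 2.19-fold lower. Of 8 proteases that process semaphorins, Adam17 was 2.52-fold and Pcsk5 2.08-fold higher and Adamts4 2.05-fold lower, with a median of 0.42 over the list. Of 5 VEGF ligands, Vegfa was 2.42-fold lower and Vegfd differed by 1.002 (log2).

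Other guidance families were measured for comparison. Among 8 ephrins the median was -0.64, with Efna1 2.67-fold and Efna2 2.13-fold lower and 0 at least 2-fold higher, beside 6.62% lower and 7.71% higher over all measured genes. Among 18 slits, netrins and their receptors 13 were measured and 5 were not well above background on either array. Their median was 0.24, and Slit1 was 2.53-fold higher with 0 at least 2-fold lower. The median of the ephrins lay below that of the semaphorins and that of slits and netrins above it, which describes these arrays and was not tested.

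**Figure D3:**
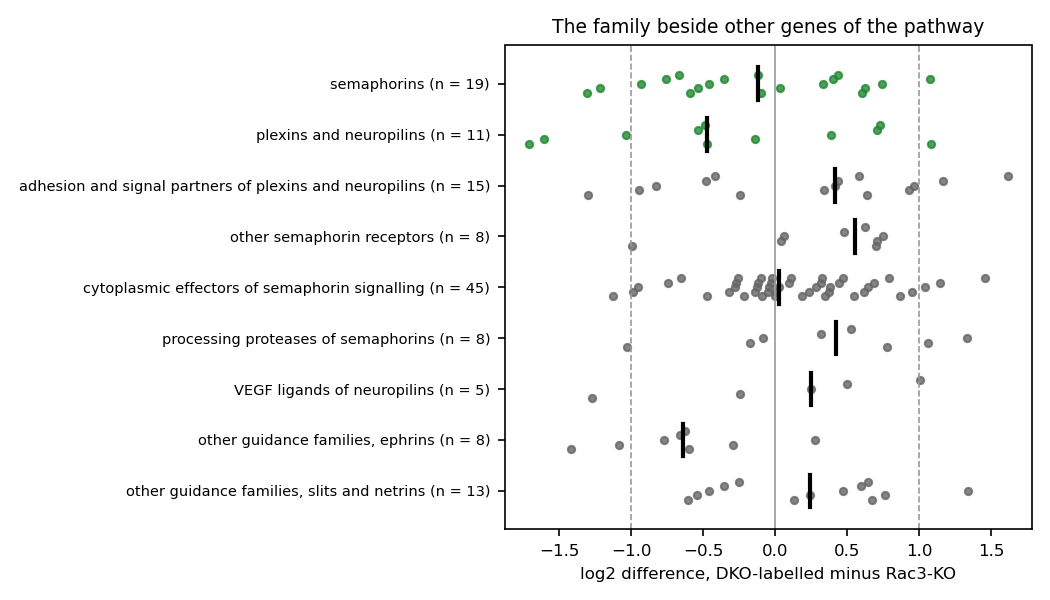
Log2 difference (DKO-labelled minus Rac3-KO) of each measured gene, one row for each gene group, with bars at the group medians and dashed lines at 2-fold. Semaphorins (median -0.12) and plexins with neuropilins (median -0.47) spread to both sides of 0, and the ephrins have a median of -0.64.

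Of the 7 genes at least 2-fold apart, 3 passed that threshold in every one of 9 other processings. Plxna3, Plxnb1 and Sema3f were at least 2-fold lower in all 9 settings. Several settings could not change these calls. The filters on dim probes and the value table return the reported differences almost unchanged by design. Averaging over probes cannot move these genes, which have 1 probe each. Median scaling and the 75th percentile over probes above background on both arrays shift every gene alike, by -0.10 and -0.01. Plxna1, Sema6b and Plxnc1 passed 2-fold in 7 of the 9 settings and Sema4g in 8, and neither higher gene passed it with normexp or with median scaling. Scaling to the spike-in RNAs, which lowered the median of all genes by 2.07 (log2), placed 28 members at least 2-fold lower and 0 higher, so every direction given is relative to the 75th percentile.

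**Figure D4:**
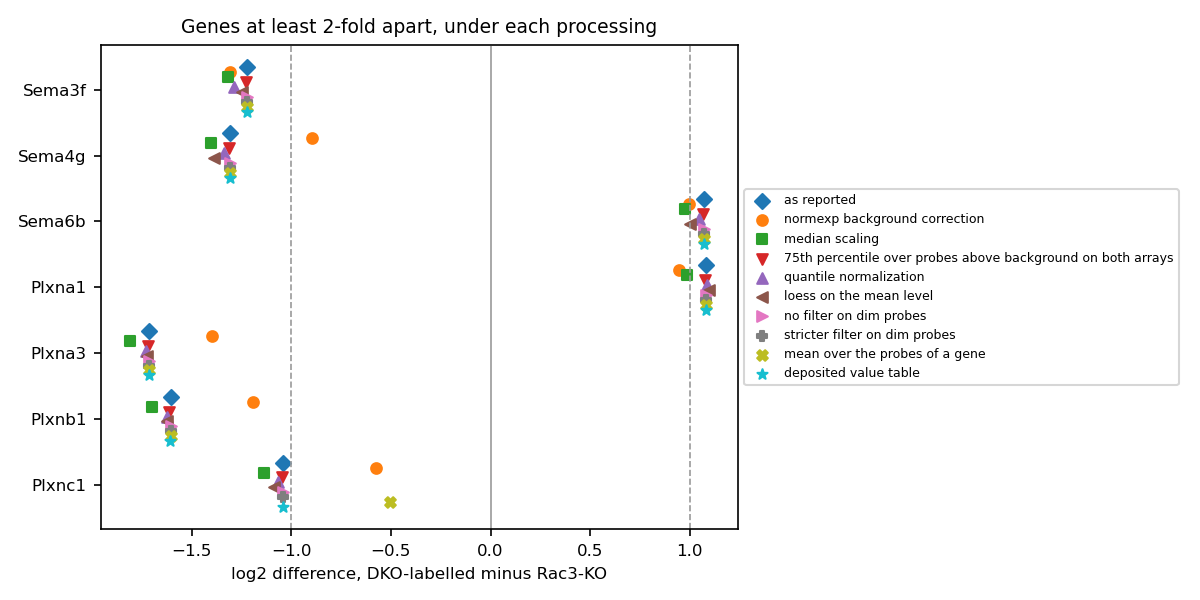
Log2 difference (DKO-labelled minus Rac3-KO) of the 7 genes at least 2-fold apart, as reported and in 9 other processings marked by symbol, with dashed lines at 2-fold. Plxna3 stays between -1.81 and -1.40, while Plxnc1 moves to -0.57 with normexp and to -0.50 with the mean over its probes.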

How the data were processed

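RNA of 2 samples was hybridised to 1-colour (Cy3) Agilent arrays, 1 per genotype label. Spot intensity is given in the deposited scanner files, read per the file headers by Feature Extraction 10.10.1.1 (9.1 per the submitters' processing notes) and not scaled between arrays. Both arrays share a slide and a scan, per the file headers. The authors' deposited value table holds log2 values. They are the log2 processed signals shifted by a constant on each array, close to its 75th percentile (100% of probes within 0.001), and the column medians were -3.72 (control) and -3.62 (DKO).

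Control spots and outlier spots (155 and 190) were left out, log2 signals of a probe were averaged, and each array's 75th percentile was subtracted. Accessions were matched, without versions, to the GRCm38.p6 RefSeq table, and the array design refers to mm9. Where a gene had several probes, the one with the highest mean of both levels was taken. A call means at least 2-fold. The number of arrays limits the precision.

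The members and gene lists were chosen with earlier results of these data known. All members are named, and genes of the pathway lists when at least 2-fold apart, while marker lists are given by their medians and summed signals; Itgb1, Cd72, Timd2, Flt4 and the marker genes without a measured value were named after their values were seen. Normexp (offset 50, limma 3.58.1) used the median spot signal, since the scanner output held no mean spot signal. The result of 1 marker gene is not reported here. The calculation was tested on simulated data. Other alternatives were scalings, filters on dim probes, the mean over probes, the value table and fold thresholds of 1.5 and 3.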

Additional observations from a re-analysis of the deposited data

How the results depend on the processing

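Of the 30 measured members, 26 moved by less than the spread between probes of a gene (0.38) with normexp and 29 with the mean over probes, and all 30 did so in the 7 other settings in which single differences were recomputed. Much of this was fixed in advance. The filters on dim probes and the value table leave the differences almost unchanged by design. Averaging cannot move the 23 of 31 members that have 1 probe. Median scaling shifts every gene by the same -0.10, well under 0.38. No gene at least 2-fold apart changed sign in these 9 settings, several of which could not change it. Normexp gave 0 members at least 2-fold higher and 3 lower, in place of 2 and 5, median scaling 0 higher and 6 lower, a threshold of 1.5-fold 7 and 9 and of 3-fold 0 and 2. The class C plexin, Plxnc1, came to -0.57 with normexp, where the cause was not tested. It came to -0.50 with the mean over its probes, which takes in the dimmer probe at 0.03. The class 5 median of 0.02 turned below 0 in 4 settings, reaching -0.07. Spike-in RNAs differed by 1.08 (log2) and would lower the median of all genes by 2.07, which gave 28 lower and 0 higher members. Over all measured genes, 53.8% of those past 2-fold were higher, or 43.6% with median scaling. With no filter the dim Sema4f was added to the higher genes (3 in all). No paired analysis was possible because each group has 1 array, and for the same reason no replicate could be left out. Signals near background, as for Plxnb3, Sema3g and the dimmer Plxnc1 probe, limit what can be read from them.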
